A study of Glycine max with 8 samples.

Results

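Lipoxygenases are iron-containing dioxygenases that add oxygen to the polyunsaturated fatty acids linoleic and linolenic acid. Their hydroperoxide products feed several plant pathways, among them jasmonate hormones and the volatile aldehydes of damaged leaves. Soybean seeds store large amounts of the lipoxygenases Lox1, Lox2 and Lox3, the source of the beany flavour of soy products, while soybean leaves make a separate set of vegetative lipoxygenases, some of which build up as storage proteins when the demand of pods for nitrogen is removed.

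The messenger RNA of 7 lipoxygenase genes was examined in soybean (Glycine max) leaves, out of 31785 genes listed in the deposited table. The genes were chosen as a list of IDs by what they encode, and all 7 were listed and passed the filter of a mean of at least 0.5 FPKM, the number of fragments per kilobase of gene per unit of library depth. In that choice, Glyma.13G347500.Wm82.a4.v1 on chromosome 13 stands for Lox2 of the seed, its neighbour Glyma.13G347600.Wm82.a4.v1 for Lox1 and Glyma.15G026300.Wm82.a4.v1 on chromosome 15 for Lox3. The other 4 are Glyma.15G026400.Wm82.a4.v1 and Glyma.15G026500.Wm82.a4.v1 on chromosome 15, Glyma.07G007000.Wm82.a4.v1 on chromosome 7 and Glyma.08G189200.Wm82.a4.v1 on chromosome 8. The suffix is left out from here on, and the files pair no ID with a name.

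Mature leaves were taken at R6, when seeds fill the pods, from phosphorus-sufficient plants of the wild type (WT) and of a line named OX5 in the labels. Both lines had 4 libraries, and values are listed in the order of replicates 1 to 4. The gene or construct that sets OX5 apart is not given in the labels, nor is the number of plants behind a library, so p-values reflect the spread between libraries alone, and that spread may be technical. Values are from whole leaf RNA, in which fewer cells of a type and less RNA per cell cannot be told apart.

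RefSeq's gene table for the assembly Glycine_max_v4.0 lists 10 genes with a lipoxygenase symbol or synonym, 4 on chromosome 13, 3 on chromosome 7, 2 on chromosome 15 and 1 on chromosome 8. On chromosome 13 it places LOX2, LOX1.1, LOXB1 and LOX7 in this order, with 1 gene between LOX2 and LOX1.1 and none between the others. LOXB1 has the synonym VSP94, where VSP stands for vegetative storage protein. The table holds no ID of the kind used in the files, so these symbols were not assigned to loci. For the same reason, markers of leaf or seed tissue and the other genes of jasmonate synthesis could not be looked up, and the labelled tissue was not checked.

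Depth was even, with 17549525 to 19172372 reads per library recovered from the FPKM steps. The OX5 libraries fell into a pair formed by replicates 1 and 2 and a pair formed by replicates 3 and 4. Over all 30424 genes tested, the root mean square difference in log2(FPKM + 1) was 0.312 between OX5 replicates 1 and 2 and 0.375 between OX5 replicates 3 and 4. Across the pairs it was 0.587 to 0.778, against 0.383 to 0.657 between WT libraries and 0.438 to 0.818 between a WT and an OX5 library. OX5 replicate 3 lay at 0.438 to 0.532 from the WT libraries, and at 0.587 and 0.676 from OX5 replicates 1 and 2. OX5 replicate 4 lay at 0.585 to 0.647 from the WT libraries, and at 0.696 and 0.778 from OX5 replicates 1 and 2. Both were thus nearer to every WT library than to the other OX5 pair. The values of every lipoxygenase gene but 1 followed the division into OX5 pairs, so each comparison of the lines is given with and without each pair. What sets the pairs apart was not tested.

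The transcripts of the 3 seed lipoxygenases were scarce in WT leaves and in OX5 replicates 1 and 2, and several times more abundant in OX5 replicates 3 and 4. Lox3 (Glyma.15G026300) had 2.73, 2.08, 2.65 and 3.19 FPKM in the WT libraries. It had 1.73, 1.74, 12.97 and 16.1 FPKM in the OX5 libraries. The lower of OX5 replicates 3 and 4 was 4.07 times the highest WT library, while OX5 replicates 1 and 2 lay below every WT library.

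Lox2 (Glyma.13G347500) showed the same division at a lower level. It had 1.24, 1.21, 0.899 and 1.04 FPKM in the WT libraries and 1.17, 1.03, 4.93 and 4.86 FPKM in the OX5 libraries. OX5 replicates 1 and 2 lay inside the WT range, and the lower of replicates 3 and 4 was 3.93 times the highest WT library.

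Lox1 (Glyma.13G347600), whose enzyme has long served as the model for lipoxygenase chemistry, was the least abundant of the 3 on average in both lines. It had 0.978, 0.765, 0.932 and 0.861 FPKM in the WT libraries and 0.575, 0.650, 4.47 and 5.05 FPKM in the OX5 libraries. Its reads numbered 43 to 55 in the WT libraries, 31 and 37 in OX5 replicates 1 and 2, and 233 and 263 in OX5 replicates 3 and 4. The lower of OX5 replicates 3 and 4 was 4.57 times the highest WT library.

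The ratio of Lox3 to Lox1 FPKM within a library was 2.68 to 3.71 over all 8 libraries, while Lox3 itself varied 9.26-fold and Lox1 8.78-fold. The ratios with Lox2 moved more. Lox2 to Lox1 ran from 0.963 in OX5 replicate 4 to 2.04 in OX5 replicate 1, and Lox3 to Lox2 from 1.48 in OX5 replicate 1 to 3.30 in OX5 replicate 4. Lox2 exceeded Lox1 in 6 of 8 libraries. Lox3 was the highest of the 3 in every library. At its highest, in OX5 replicate 4, Lox3 stood at percentile 76.1 of all genes listed for that library. Its lowest percentile was 19.2, in OX5 replicate 2.

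**Figure D1:**
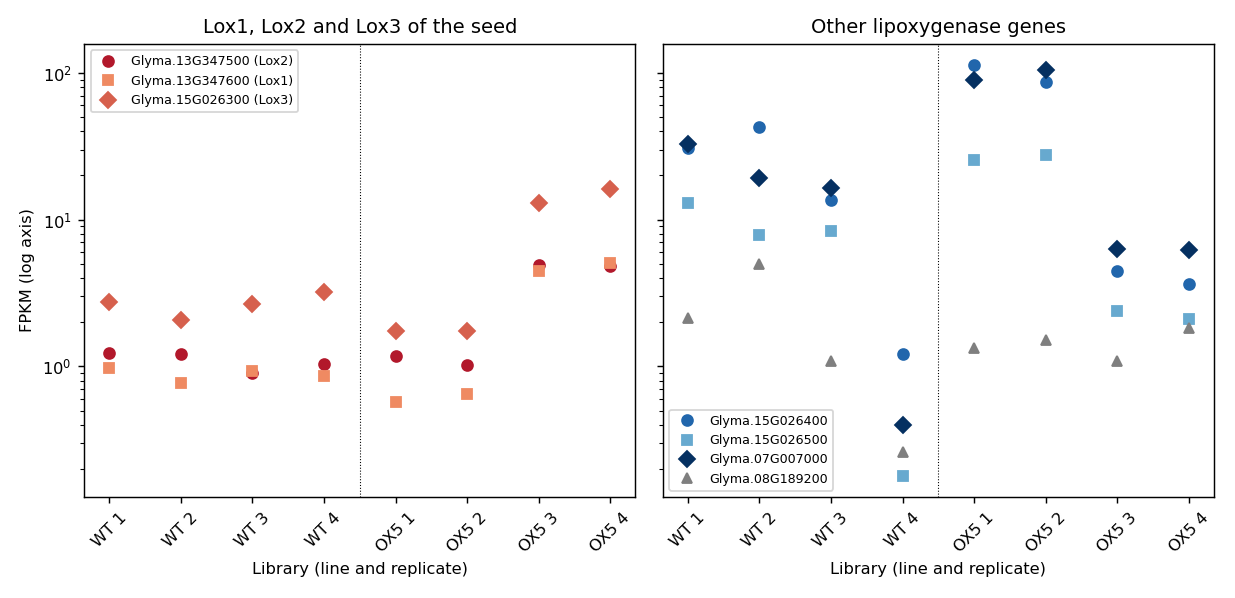
Level of each lipoxygenase gene in FPKM (log axis) in the 4 WT and 4 OX5 libraries, 1 point per library, with the 3 seed genes on the left and the other 4 on the right. The seed genes are high in OX5 replicates 3 and 4 (Lox3 at 12.97 and 16.1 FPKM), and Glyma.15G026400, Glyma.15G026500 and Glyma.07G007000 are high in OX5 replicates 1 and 2 and lowest in WT replicate 4.

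Glyma.15G026400, Glyma.15G026500 and Glyma.07G007000 had the opposite division within OX5 and also varied widely between WT libraries. Glyma.15G026400, the locus that follows Lox3 by ID, had 30.9, 42.6, 13.7 and 1.22 FPKM in the WT libraries. It had 113.8, 86.5, 4.45 and 3.66 FPKM in the OX5 libraries. The lower of OX5 replicates 1 and 2 was 2.03 times the highest WT library and 19.4 times the higher of OX5 replicates 3 and 4, which lay between the lowest and the next lowest WT library.

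Glyma.07G007000 reached a similar height. It had 33.0, 19.3, 16.3 and 0.401 FPKM in the WT libraries and 89.4, 104.0, 6.33 and 6.18 FPKM in the OX5 libraries. Its spread over the 8 libraries, 259-fold from WT replicate 4 to OX5 replicate 2, was the widest of the 7 genes on the log2(FPKM + 1) scale.

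Glyma.15G026500, next to Glyma.15G026400 by ID, followed the same division at a lower level. It had 13.1, 7.82, 8.32 and 0.178 FPKM in the WT libraries and 25.6, 27.4, 2.38 and 2.103 FPKM in the OX5 libraries. Between them, Glyma.07G007000 and Glyma.15G026500 kept a ratio of 1.96 to 3.80 in all 8 libraries, while the latter varied 154-fold.

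WT replicate 4 was the lowest of all 8 libraries for each of these 3 genes. The lowest of the other WT libraries exceeded it 11.2-fold for Glyma.15G026400, 40.6-fold for Glyma.07G007000 and 43.9-fold for Glyma.15G026500. Few reads lay behind the low values, with 79 for Glyma.15G026400, 29 for Glyma.07G007000 and 16 for Glyma.15G026500. The exact 95% Poisson interval was 0.102 to 0.289 FPKM for the last of these, and such intervals cover counting error only. WT replicate 4 had the deepest library of the 8, with 19172372 reads. Within OX5, replicates 3 and 4, which were low for these genes, had 17549525 and 17556275 reads, against 18157712 and 19154538 in replicates 1 and 2. The part of depth in these values was not tested. The seed lipoxygenases were not low in that library, where Lox3 had its highest WT value.

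Glyma.08G189200 divided neither way in OX5. It had 2.14, 4.98, 1.09 and 0.260 FPKM in the WT libraries and 1.33, 1.504, 1.09 and 1.82 FPKM in the OX5 libraries, all of the latter inside the WT range. Its lowest library was again WT replicate 4, with 18 reads. The spread was 19.1-fold in WT and 1.67-fold in OX5. For Glyma.15G026400, Glyma.15G026500 and Glyma.07G007000 it was 35.0-fold, 73.4-fold and 82.2-fold in WT and 31.1-fold, 13.03-fold and 16.8-fold in OX5.

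Measured against all genes tested, 6 of the 7 genes had a wide spread in OX5. The range over the 4 OX5 libraries on the log2(FPKM + 1) scale was 4.62 for Glyma.15G026400, 3.87 for Glyma.07G007000 and 3.19 for Glyma.15G026500, against a median of 0.579 over all genes tested. For the seed genes it was 2.64 for Lox3, 1.94 for Lox1 and 1.55 for Lox2. Glyma.08G189200, at 0.430, lay below the median. Over the 4 WT libraries the seed genes had ranges of 0.165 to 0.445, below the median of 0.470 over all genes tested. Adding 1 FPKM narrows the ranges of low genes most, which bears on the seed genes and on Glyma.08G189200. The median listed gene had 5.55 to 6.78 FPKM, depending on the library. Glyma.07G007000, Glyma.15G026400 and Glyma.15G026500 had WT ranges of 4.599, 4.30 and 3.58, and Glyma.08G189200 one of 2.25.

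**Figure D2:**
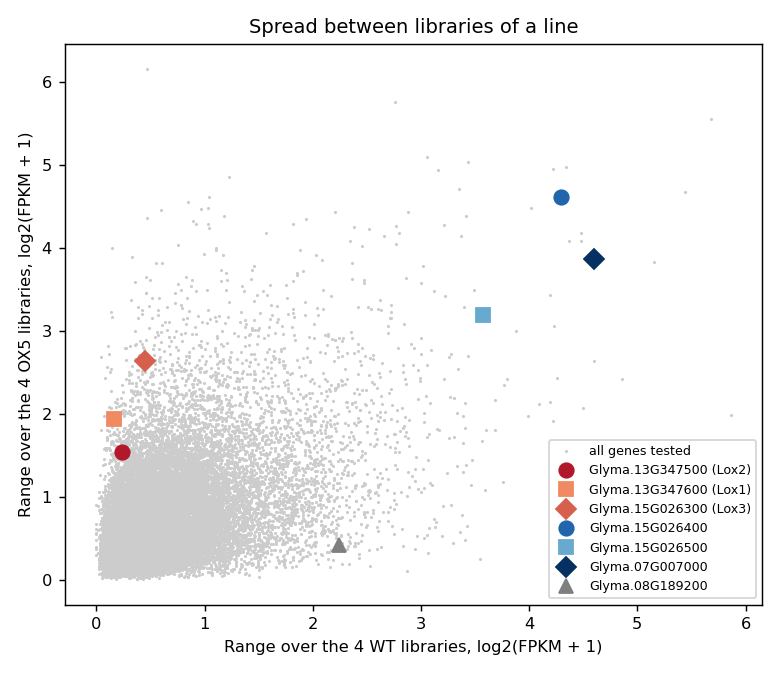
Range of log2(FPKM + 1) over the 4 WT libraries (horizontal) and over the 4 OX5 libraries (vertical) for all 30424 genes tested (grey points) and the 7 lipoxygenase genes (coloured). The seed genes lie at low WT range and raised OX5 range, while Glyma.15G026400, Glyma.15G026500 and Glyma.07G007000 lie far out on both axes.

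The summed FPKM of the 7 genes varied widely within both lines. It was 84.0, 78.8, 43.8 and 7.15 in the WT libraries and 233.5, 222.8, 36.6 and 39.7 in the OX5 libraries. The lines overlapped, since OX5 replicates 3 and 4 lay below 3 of the 4 WT libraries. The 3 seed genes made up 5.89%, 5.14%, 10.2% and 71.2% of the sum in the WT libraries. They made up 1.49%, 1.53%, 61.1% and 65.4% in the OX5 libraries. The 3 libraries with a high seed share differed in level, with a summed seed level of 22.4 and 26.0 FPKM in OX5 replicates 3 and 4 but 5.09 FPKM in WT replicate 4, where the other 4 genes summed to 2.06 FPKM.

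**Figure D3:**
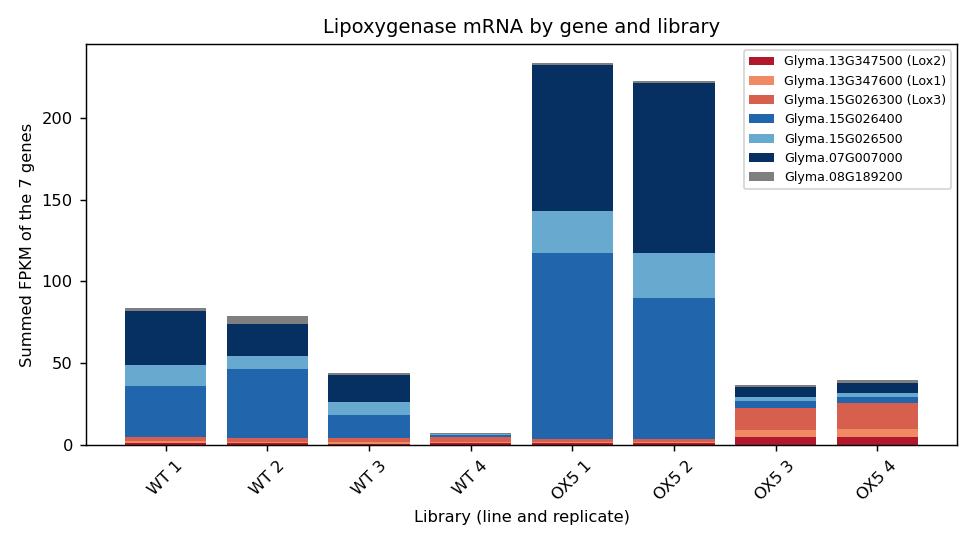
Summed FPKM of the 7 lipoxygenase genes in each library, stacked by gene (linear axis from 0). OX5 replicates 1 and 2 reach 233.5 and 222.8 FPKM, nearly all from Glyma.15G026400, Glyma.15G026500 and Glyma.07G007000, and WT replicate 4 reaches 7.15 FPKM.

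By mean level, the order in WT was Glyma.15G026400 at 22.1 ± 18.3 FPKM, Glyma.07G007000 at 17.2 ± 13.4, Glyma.15G026500 at 7.34 ± 5.33, Lox3 at 2.66 ± 0.456, Glyma.08G189200 at 2.12 ± 2.06, Lox2 at 1.10 ± 0.157 and Lox1 at 0.884 ± 0.0930 (SD, n = 4 each). In OX5 the means were 52.1 ± 56.6, 51.5 ± 52.6, 14.4 ± 14.0, 8.13 ± 7.49, 1.43 ± 0.306, 3.00 ± 2.19 and 2.69 ± 2.41 FPKM for the same genes (SD, n = 4 each), so that Glyma.08G189200 was the lowest there. The values of each gene overlapped those of the next gene in the order in both lines, so the order of neighbours was not set apart by the spread. Within libraries some steps were regular, as Glyma.07G007000 exceeded Glyma.15G026500 in 8 of 8 libraries.

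None of the 7 genes differed between OX5 and WT by limma's test on log2(FPKM + 1) at a Benjamini-Hochberg adjusted p under 0.05. Of all 30424 genes tested, 2.4% were called, with 1.38% risen and 1.01% fallen, and 21.7% had an unadjusted p under 0.05. An unadjusted p under 0.05 was found for 0 of the 7, and at these shares few of 7 genes would be expected to pass. The largest log2 fold change with all 8 libraries was 1.23 for Glyma.07G007000 (SE 1.22, 95% interval −1.53 to 3.99, limma adjusted p = 0.592). Without WT replicate 4 it was 0.22, below the 0.904 of Lox3, without OX5 replicate 1 or 2 it was 0.637 or 0.565, and it reached 1.86 without OX5 replicate 4. For Glyma.15G026400 it was 0.62 (95% interval −2.29 to 3.54, limma adjusted p = 0.813) and for Glyma.15G026500 0.63 (−1.59 to 2.86, limma adjusted p = 0.745). These intervals span several-fold differences in either direction, so neither a rise nor a fall of that size was resolved.

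The seed genes had narrower intervals. The log2 fold change was 0.84 for Lox3 (95% interval −0.53 to 2.202, limma adjusted p = 0.451), 0.75 for Lox2 (−0.09 to 1.59, limma adjusted p = 0.278) and 0.69 for Lox1 (−0.32 to 1.71, limma adjusted p = 0.403). With 1 library left out, the value ran from 0.373 to 1.25 for Lox3, from 0.498 to 1.01 for Lox2 and from 0.364 to 1.01 for Lox1, lowest without OX5 replicate 3 or 4. With library quality weights, which count libraries far from their line less, it was 0.015 for Lox3, 0.361 for Lox2 and 0.061 for Lox1. With 0.1 FPKM added in place of 1, it was 0.919 for Lox3 (SE 0.726), 1.04 for Lox2 (SE 0.526) and 0.921 for Lox1 (SE 0.687). The main values and intervals of these low genes thus depend on the amount added. In the main fit Glyma.08G189200 had a log2 fold change of −0.13 (−1.06 to 0.80, limma adjusted p = 0.880). The median over the 7 genes was 0.69 with all libraries, against 0.043 over all genes tested. The middle value of the 7 was −0.13 without OX5 replicates 1 and 2, and 0.0038 without OX5 replicates 3 and 4. The 0.69 thus mixes 2 unlike pairs and describes no shared rise of the 7 genes. The WT and OX5 values of all 7 genes overlapped. Of all genes tested, 14.2% had no overlap, a share at which few of 7 genes would be expected to have none. The count therefore does not set the 7 genes apart.

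For 5 of the 7 genes the sign of the difference depended on which pair of OX5 libraries was included, in fits chosen after the libraries had been seen. The others were Lox2, above 0 in both fits, and Glyma.08G189200, at −0.13 without replicates 1 and 2 and −0.14 without replicates 3 and 4. Without OX5 replicates 1 and 2, the log2 fold change was 2.08 for Lox3 (limma adjusted p = 0.0061), 1.61 for Lox1 (limma adjusted p = 0.0080) and 1.495 for Lox2 (limma adjusted p = 0.012), a fit in which 0.396% of all genes tested were called as risen and 0.772% in either direction. In that fit Glyma.15G026400, Glyma.15G026500 and Glyma.07G007000 had log2 fold changes of −1.53, −0.91 and −0.65 (limma adjusted p = 0.462, 0.609 and 0.786). The values that set the pairs apart also enter these fits, so the calls describe the pairs and do not compare the lines independently.

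Without OX5 replicates 3 and 4, the signs were the other way round for 2 of the seed genes. Lox3 then had a log2 fold change of −0.41 and Lox1 one of −0.22, while Lox2 stood at 0.0038 (limma adjusted p = 0.127, 0.283 and 0.989). Glyma.07G007000, Glyma.15G026400 and Glyma.15G026500 had 3.10, 2.78 and 2.18 (limma adjusted p = 0.107, 0.121 and 0.140). None of the 7 was called in that fit, in which 18.2% of all genes tested were called.

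**Figure D4:**
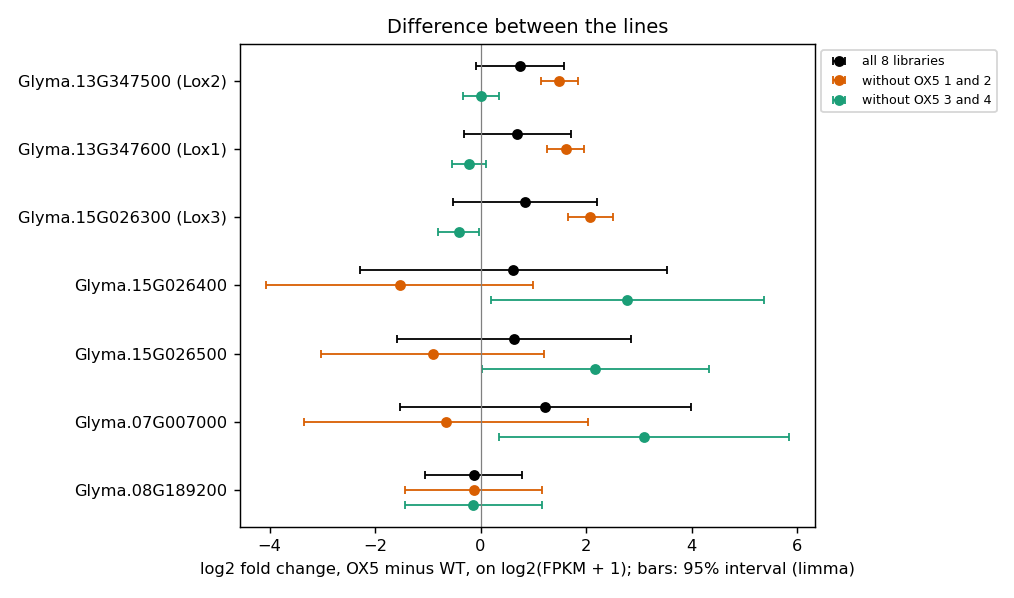
Log2 fold change of each gene, OX5 minus WT, on the log2(FPKM + 1) scale with limma's 95% interval, for all 8 libraries (black), without OX5 replicates 1 and 2 (orange) and without OX5 replicates 3 and 4 (green). With all libraries every interval includes 0, and the orange and green points lie on opposite sides of 0 for Lox1, Lox3, Glyma.15G026400, Glyma.15G026500 and Glyma.07G007000.

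By likeness of pattern, the 7 genes fell into the sets described above, which rest on the same values and so are not independent of them. Likeness was measured as the root mean square difference of log2(FPKM + 1) over the 8 libraries after subtracting the mean of each gene, as a description of these libraries. It was 0.163 between Lox1 and Lox2, 0.265 between Lox1 and Lox3 and 0.396 between Lox2 and Lox3. Among Glyma.15G026400, Glyma.15G026500 and Glyma.07G007000 it was 0.475 to 0.635. Between a gene of one set and a gene of the other it was 1.89 to 2.73. Glyma.08G189200 lay at 0.882 to 1.22 from the seed genes and 1.36 to 1.75 from the others. For each of the 7, the most alike gene tested was outside the 7, at 0.106 for Lox3 to 0.410 for Glyma.15G026400. The patterns were thus not confined to these genes.

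The division ran between loci that follow each other on a chromosome. Lox3 and Glyma.15G026400 have successive IDs, and the ratio of Glyma.15G026400 to Lox3 was 11.3, 20.5, 5.15 and 0.382 in the WT libraries. In the OX5 libraries the ratio was 65.6, 49.7, 0.343 and 0.228. The 2 loci thus changed places as the more abundant one, with Lox3 ahead in WT replicate 4 and OX5 replicates 3 and 4. How the authors' counting treated reads shared between similar gene copies is not given in the sources used here, and shared reads would make the values of such copies more alike.

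The 2 genes of the table most like Glyma.07G007000, the member with the widest range, were Glyma.08G238100 and Glyma.13G347700, at root mean square differences of 0.279 and 0.332. Glyma.08G238100 had 19.1, 12.3, 9.76 and 0.243 FPKM in the WT libraries and 74.8, 65.2, 3.07 and 2.39 FPKM in the OX5 libraries. Glyma.13G347700, which follows Lox1 by ID, had 30.1, 21.7, 14.9 and 0.396 FPKM in the WT libraries. It had 59.99, 65.8, 5.23 and 2.94 FPKM in the OX5 libraries. The ratio of Glyma.13G347700 to Lox1 ran from 0.461 in WT replicate 4 to 104.4 in OX5 replicate 1. The loci following the seed gene on chromosome 13 and on chromosome 15 thus had a like division. Glyma.13G347700 was picked for its likeness to Glyma.07G007000, so that likeness is not an independent observation.

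A set of 23 other loci had an ID number within 500 of a member. Limma's test between the lines called 0 of them, with a lowest adjusted p of 0.0766. At the 2.4% called over all genes tested, few of 23 loci would be expected to pass, so the count does not set them apart. Of the 23, 3 had a range of at least 3 on the log2(FPKM + 1) scale over the 8 libraries, as did 3 of the 7 lipoxygenase genes and 1.75% of all genes tested. These are named after their values were seen. Beside Glyma.13G347700 they were Glyma.13G347800, with 7.48, 13.7, 3.20 and 0.363 FPKM in the WT libraries and 65.9, 46.7, 1.04 and 1.27 FPKM in the OX5 libraries, and Glyma.08G189600. WT replicates 1 to 3 had 5.77, 3.09 and 2.01 FPKM of the latter, and WT replicate 4 had no read, which allows up to 3 reads or 0.0506 FPKM. In the OX5 libraries it had 67.6, 69.5, 0.295 and 0.534 FPKM.

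All 3 loci were high in OX5 replicates 1 and 2 and lowest in WT replicate 4. The remaining 20 neighbouring loci had ranges of 0.339 to 1.88. The widest of these belonged to Glyma.07G006900, near Glyma.07G007000 and also named after its values were seen. It had 0.718, 0.0701, 0.265 and 0 FPKM in the WT libraries and 2.43, 2.68, 0 and 0 FPKM in the OX5 libraries. A like division within OX5 was thus not confined to the 3 loci, and adding 1 FPKM narrows the range of so low a gene. Glyma.08G189200 thus lies near a locus, Glyma.08G189600, whose values divided within OX5 while its own did not. The files give no name for these loci. RefSeq's table lists LOXB1 and LOX7 after LOX1.1 on chromosome 13, so some neighbouring loci may themselves be lipoxygenase genes, which could not be checked.

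**Figure D5:**
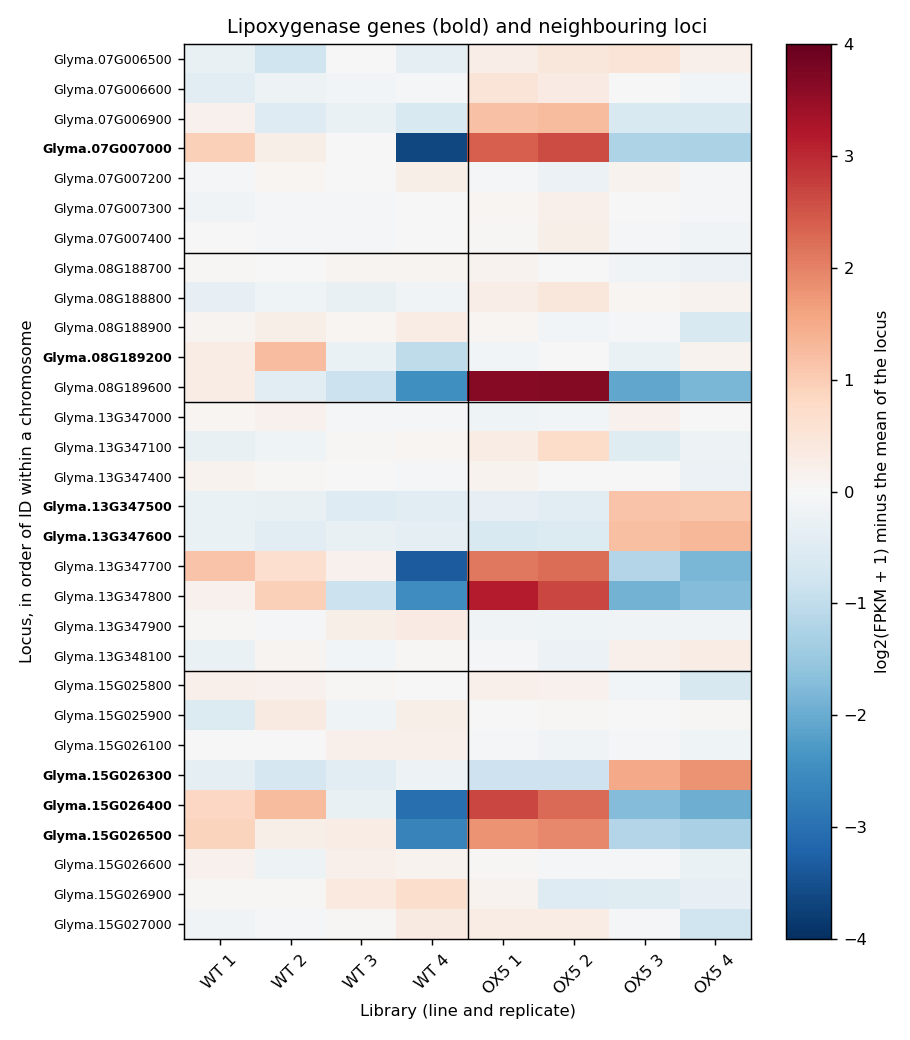
Log2(FPKM + 1) minus the mean of each locus in the 8 libraries, for the 7 lipoxygenase genes (bold) and the 23 neighbouring loci in order of ID, with horizontal lines between chromosomes. Lox1 and Lox2 (Glyma.13G347600 and Glyma.13G347500) are raised in OX5 replicates 3 and 4 beside Glyma.13G347700 and Glyma.13G347800, which are raised in OX5 replicates 1 and 2, and most other neighbours are pale throughout.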

How the data were processed

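Messenger RNA was measured in 8 libraries of soybean leaves, 4 of WT and 4 of OX5. Per the labels' protocols, Trizol was used for extraction and a VAHTS Universal V6 kit for the libraries. The deposited file is 1 table of FPKM made by the authors, with 1 column per library. HTSeq 0.6.0, HISAT2 2.1.0, Bowtie2 2.2.3, TopHat2 and CASAVA are named, with no role, per the submitters' processing notes. Genome build and strand setting: not given in the sources used here, beyond the suffix Wm82.a4.v1 of the gene IDs. A single row without a gene name was left out.

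Whole reads and gene lengths were recovered from the FPKM steps for 100% of 31785 genes (99th percentile distance from a whole number 0.0061 reads), with 3.77% solved after values were changed by up to 2%. On simulated reads 99.8% of genes were exact. Recovered reads gave depth (17549525 to 19172372 reads per library), counting intervals and an added fit.

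Lines were compared with limma 3.58.1 under R 4.3.3, using a variance trend on log2(FPKM + 1), over the 30424 genes averaging at least 0.5 FPKM. P-values were adjusted by Benjamini-Hochberg over all of these genes, with a threshold of 0.05. The fit was also run on simulated data with independent libraries and no pairs, so that run does not bear on the OX5 pairs. Fold changes on the log2(FPKM + 1) scale understate the change of low genes. Each result was recomputed in 20 other fits, 3 of them chosen after seeing the data. Figures and tables were made in Python 3.11.15 (matplotlib 3.10.9, pandas 2.3.3, numpy 2.4.6, scipy 1.17.1). The genes named are the 7 members, the 2 genes most like the member with the widest range, and the neighbouring loci within 500 of a member's ID number that varied most. The members and lists were chosen with earlier results of these data known. The lists of jasmonate pathway genes and of leaf and seed markers could not be matched and were not used. No sequence was used.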

Additional observations from a re-analysis of the deposited data

How the results depend on the processing

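With all 8 libraries or 1 left out, 0 of the 7 lipoxygenase genes were called in any of the 18 alternatives other than those without a pair of OX5 libraries; in the fit with a mean of at least 2 FPKM, 2 of the 7 were not tested. Without OX5 replicates 1 and 2 together, 3 were called, all of them seed genes, and without replicates 3 and 4 together 0 were; these fits and limma-voom were chosen after seeing the data. Over all genes, 729 were called, and the count was 9504 with library quality weights, 436 with limma-voom on recovered reads, 232 without OX5 replicates 1 and 2, 5562 without OX5 replicates 3 and 4, and 58 to 762 with 1 library left out. A fit with a block for the replicate number called 56 genes. For same-numbered libraries, deviations from the line means had correlations across genes of −0.056, 0.071, 0.13 and −0.061, so the numbers were not taken to pair the samples.

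The sign of the difference moved for genes that were not called. For Glyma.08G189200 it was −0.13 with all libraries, 0.024 with a pseudocount of 0.1, 0.032 with library quality weights, 0.097 with limma-voom, and −0.49 to 0.26 with 1 library left out. With 1 library left out, Glyma.15G026400 ran from −0.28 without WT replicate 4 to 1.38, and was also below 0 without OX5 replicate 1 (−0.16) or 2 (−0.030), and Glyma.15G026500 ran from −0.15 without WT replicate 4 to 1.17. Without WT replicate 4, Glyma.07G007000 kept its sign at 0.22. Library quality weights moved Glyma.15G026400 to 2.103, Glyma.15G026500 to 1.29 and Glyma.07G007000 to 2.09, with limma adjusted p of 0.106, 0.191 and 0.0972. Without OX5 replicates 1 and 2, Glyma.15G026400, Glyma.15G026500 and Glyma.07G007000 stood at −1.53, −0.91 and −0.65. Without OX5 replicates 3 and 4, Lox1 and Lox3 stood at −0.22 and −0.41. For none of them was the cause tested. Depth limits the low values most, as 16 to 29 reads lay behind 3 of the 7 genes in WT replicate 4.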
